A study of Mus musculus with 16 samples.

Results

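The genes described here were 10 members of 2 neighbouring imprinted domains on mouse chromosome 7, chosen by gene name: H19, Igf2 and Ins2 of the H19-Igf2 domain, and Kcnq1ot1, Kcnq1, Cdkn1c, Phlda2, Slc22a18, Ascl2 and Cd81 of the Kcnq1ot1 domain. All 10 were found among the 55471 genes of the CpG methylation (mCpG) table, and 9 among the 43984 genes of the histone mark table, which had no row named Kcnq1ot1. The values came from induced pluripotent stem cell (iPSC) clones of the mouse, derived from sorted kidney proximal tubule cells (PTC, lines PTC11 and PTC12) and from tail tip fibroblasts (TTF, lines TTF1 and TTF4). Donor mice of every line were heterozygous for SLC34a1-GFPCreERt2, tdTomato, rtTAROSA (neo-in) and OKMS-250, so all groups carried the doxycycline (DOX)-inducible reprogramming factors. The methods describe tamoxifen feeding of these mice as young adults, before kidneys and tail tips were collected. In PTC it activated the Slc34a1-driven Cre, and tdTomato+/GFP+ cells were sorted. In TTF, Cre came from an electroporated episomal plasmid. DOX was then given to both and withdrawn, and the lines were early passage clones that no longer needed it. Each line was 1 clone, with 1 library each for mCpG, H3K4me3 and H3K36me3, so that a line was the replicate (n = 2 per origin) and differences between clones could not be told apart from differences between origins. The paper describes ChIP in duplicates and methylation averaged over 2 independent animals. The samples held only 1 library per line for these assays and did not name the animal. Differences between animals could thus not be told apart from those between clones.

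Imprinted genes are expressed from the maternal or the paternal copy only, according to CpG methylation that a control region received in the egg or the sperm. The H19-Igf2 control region lies upstream of H19 and is methylated on the paternal copy, where the growth factor Igf2 is expressed, while the non-coding RNA H19 is expressed from the unmethylated maternal copy. The Kcnq1ot1 domain is governed by a CpG island at the start of Kcnq1ot1 that is methylated on the maternal copy; on the unmethylated paternal copy the long antisense RNA Kcnq1ot1 is made and its protein-coding neighbours are silenced. H3K4me3 marks the starts of active genes, H3K36me3 marks transcribed gene bodies, and H3K27me3 marks genes repressed by Polycomb. None of the values distinguished the parental copies.

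Methylation was the fraction of methylated CpGs within 1 kb to each side of a transcription start site (TSS), read by nanopore sequencing, with unknown coverage. Its mean over all genes ranged from 0.372 in PTC11 to 0.649 in TTF4, so that TTF4 was the most methylated line over all genes. Histone values were RPKM above input, averaged over the peaks that a gene had around its TSS for H3K4me3 and H3K27me3 and along its body for H3K36me3, and a gene with no retained peak had no value. The labels give 50 M reads for each ChIP sample. H3K4me3 had values at 15114 to 19990 genes per line, fewest in PTC11 and TTF4, and the median H3K36me3 was 1.18 to 1.60 RPKM in TTF1 and PTC11 but 3.88 to 4.01 RPKM in PTC12 and TTF4. Of 12 pluripotency markers 9 had H3K4me3 in all 4 lines, Pou5f1, Nanog and Sox2 among them, against 1 of 10 proximal tubule markers (Lrp2), 1 of 10 fibroblast markers (Thy1) and 3 of 10 trophoblast markers. The study's methods name mouse embryonic fibroblast feeder cells for the iPSCs before differentiation and do not say whether feeders were present when DNA and chromatin were taken. Their share in the libraries was not tested, and 2 to 5 of the 10 fibroblast markers had H3K4me3 in a line.

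The start sequences below are parts of the methylation windows of Kcnq1ot1, Igf2 and Phlda2 and, for the downstream Igf2 start, of the antisense gene Igf2os. They were chosen because CpG content divided the members. They are the 300 bases from 250 before to 50 after a start in RefSeq (GRCm38.p6, the same assembly as mm10), read 5′ to 3′ on the gene's strand, with CpGs in capitals. The table of RefSeq start sequences used here matched 6 members; H19, Ins2, Kcnq1 and Cdkn1c were not matched. The Kcnq1ot1 start (chr7:143296498-143296797, minus strand) held 9 CpGs, the upstream Igf2 start that the methylation table used (chr7:142666767-142667066, minus) held 2, a downstream Igf2 start (chr7:142658755-142659054, minus) held 24, and the RefSeq Phlda2 start (chr7:143502475-143502774, minus) held 26, where the median over 32851 promoter sequences was 7.
Kcnq1ot1: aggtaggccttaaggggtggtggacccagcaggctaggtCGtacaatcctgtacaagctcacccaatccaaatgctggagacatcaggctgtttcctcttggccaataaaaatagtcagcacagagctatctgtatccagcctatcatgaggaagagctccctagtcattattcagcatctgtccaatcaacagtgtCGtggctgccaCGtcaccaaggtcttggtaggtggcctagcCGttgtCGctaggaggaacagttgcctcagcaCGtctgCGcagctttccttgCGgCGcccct
Igf2, upstream start: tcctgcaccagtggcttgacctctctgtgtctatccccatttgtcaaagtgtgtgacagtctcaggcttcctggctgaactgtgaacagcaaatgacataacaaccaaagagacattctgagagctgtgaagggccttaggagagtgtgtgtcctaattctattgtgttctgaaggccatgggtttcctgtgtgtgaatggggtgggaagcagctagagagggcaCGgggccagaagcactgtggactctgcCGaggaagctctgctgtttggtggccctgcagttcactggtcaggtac
Igf2, downstream start: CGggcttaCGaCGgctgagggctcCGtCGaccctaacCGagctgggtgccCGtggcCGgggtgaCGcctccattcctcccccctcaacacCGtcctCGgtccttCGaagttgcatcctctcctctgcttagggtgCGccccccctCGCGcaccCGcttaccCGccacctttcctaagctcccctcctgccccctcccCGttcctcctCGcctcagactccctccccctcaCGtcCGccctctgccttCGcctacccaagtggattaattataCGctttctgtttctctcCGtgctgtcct
Phlda2: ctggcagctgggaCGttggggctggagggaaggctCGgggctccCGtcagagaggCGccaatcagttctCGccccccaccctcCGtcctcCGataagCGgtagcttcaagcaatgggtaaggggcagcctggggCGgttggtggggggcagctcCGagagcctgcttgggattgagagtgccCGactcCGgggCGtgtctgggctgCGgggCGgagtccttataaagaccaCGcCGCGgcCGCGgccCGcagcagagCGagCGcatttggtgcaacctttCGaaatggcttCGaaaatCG

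In the methylation windows of 2 kb the CpGs ranged from 7 at Ins2 to 171 at Cdkn1c, with a median of 25 over 55348 windows. Kcnq1ot1 had 78, of which the printed stretch held 9, H19 had 55 and Kcnq1 had 65, while Igf2 had 25 and Slc22a18 had 11. The hexamer TGCCGC, which the imprint-protecting factor Zfp57 binds when methylated, was counted on both strands. It occurred 3 times in the windows of Kcnq1ot1, Kcnq1 and Ascl2, once at Cdkn1c and not at the other 6 members, while 28.5% of all windows held it and 3.72% held at least 3.

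In the H19-Igf2 domain the start windows were methylated at intermediate to high levels in every line. H19 (chr7:142575529-142578143, minus strand), the maternally expressed long non-coding RNA, had an mCpG fraction of 0.50 and 0.734 in PTC11 and PTC12 and 0.777 and 0.974 in TTF1 and TTF4. Both TTF lines thus lay above both PTC lines, although PTC12 and TTF1 were close. Within each line this placed H19 at the percentiles 65.7, 78.4, 92.7 and 93.4 of all genes, in the same order, so that it ranked high in TTF lines also against their own genes. Among windows with at least 50 CpGs, H19 stood at the percentiles 97.8 (PTC11), 98.4 (PTC12), 99.3 (TTF1) and 99.4 (TTF4). Against windows of that CpG content it was thus near the top in every line. The control region itself lies further upstream than the window reached. The overlapping window of Mir675, the microRNA made from the H19 transcript, had 0.440 (PTC11), 0.774 (PTC12), 0.830 (TTF1) and 0.938 (TTF4), in the same order as H19.

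Igf2 (chr7:142650766-142666816, minus), the fetal growth factor, had fractions of 0.555 and 0.576 in PTC11 and PTC12 and 0.616 and 0.941 in TTF1 and TTF4 at its upstream, CpG-poor start. The other lines were close together and TTF4 was 0.325 above the highest of them. The downstream Igf2 start printed above lay inside the window of the antisense gene Igf2os, whose fractions were 0.0222, 0.0203, 0.0169 and 0.00729 in the same order of lines. The CpG-rich Igf2 start was therefore nearly unmethylated in all 4 lines, TTF4 included, while the upstream start was methylated in all 4. Ins2 (chr7:142678656-142743381, minus), which encodes insulin, went the other way, with 0.549 in PTC11 and 0.627 in PTC12 against 0.498 in TTF1 and 0.476 in TTF4. Its window held only 7 CpGs and sat at a start 43871 bp from the one used for its histone values. The fractions describe that annotated start only. Whether insulin transcripts begin there was not tested, so they cannot be read as methylation of the insulin promoter.

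In the Kcnq1ot1 domain 4 of 7 start windows (Kcnq1ot1, Kcnq1, Cdkn1c and Phlda2) were at or under 0.426 in 3 lines and higher in TTF4. Kcnq1ot1 (chr7:143203458-143296549, minus), whose start lies in intron 11 of a 16-exon Kcnq1 transcript, had fractions of 0.114 (PTC11), 0.426 (PTC12), 0.229 (TTF1) and 0.948 (TTF4). TTF4 was 0.522 above the next line, and the 3 others spread over a wide range. The start windows close to it, those of Gm37364 at 1149 bp and Gm27539 at 2617 bp, had 0.826 and 0.841 in TTF4 and 0.242 to 0.481 in the other lines. These windows held only 10 and 12 CpGs. That of Gm37364 overlapped the Kcnq1ot1 window, so its values were not independent of those at Kcnq1ot1. Kcnq1 (chr7:143106362-143427042, plus), a voltage-gated potassium channel, had 0.213 and 0.391 in PTC11 and PTC12 and 0.0809 and 0.910 in TTF1 and TTF4, so that the 2 TTF lines held the lowest and the highest value.

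Cdkn1c (chr7:143458339-143461050, minus), a Cip/Kip inhibitor of cyclin-dependent kinases, had 0.0487 (PTC11), 0.0371 (PTC12), 0.0764 (TTF1) and 0.679 (TTF4). The first 3 lines were nearly unmethylated with an SD of 0.0202 among them, and TTF4 was 0.603 higher. The overlapping window of Gm44732 had 0.0445, 0.103, 0.0899 and 0.800. Phlda2 (chr7:143501545-143503150, minus), a pleckstrin homology domain protein that limits placental growth, had 0.0526 and 0.125 in PTC11 and PTC12 and 0.179 and 0.453 in TTF1 and TTF4, so that it was also highest in TTF4.

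The last 3 members varied otherwise. Slc22a18 (chr7:143473736-143499334, plus), an organic cation transporter-like protein, had 0.507 (PTC11), 0.185 (PTC12), 0.366 (TTF1) and 0.725 (TTF4), a wide spread with overlapping origins in a window of 11 CpGs. Ascl2 (chr7:142966829-142969264, minus), a basic helix-loop-helix factor of trophoblast and intestinal stem cells, had the narrowest range of the 10 members, 0.177 and 0.191 in PTC11 and PTC12 and 0.198 and 0.140 in TTF1 and TTF4. Cd81 (chr7:143052739-143067934, plus), a tetraspanin near the edge of the domain, had 0.0189 (PTC11), 0.0891 (PTC12), 0.151 (TTF1) and 0.116 (TTF4). Ascl2 and Cd81 were thus not higher in TTF4 than in TTF1, with 114 and 96 CpGs in their windows.

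**Figure D1:**
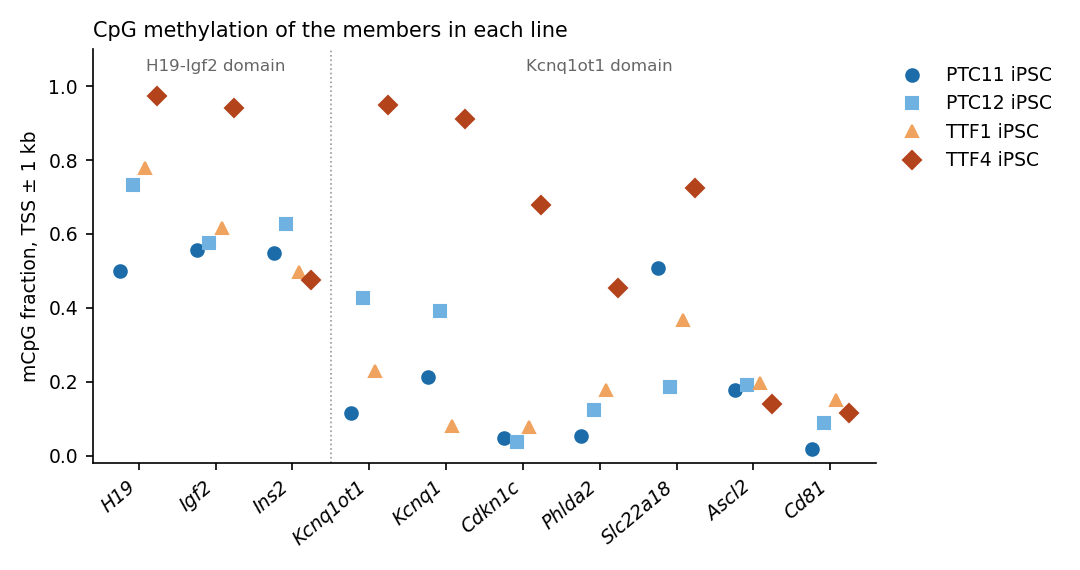
The mCpG fraction within 1 kb of the TSS (y axis, 0 to 1) of each of the 10 members (x axis) in the 4 lines, 1 point per line. TTF4 lies between 0.453 and 0.948 at Kcnq1ot1, Kcnq1, Cdkn1c, Phlda2 and Slc22a18 and at 0.140 and 0.116 at Ascl2 and Cd81.

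TTF4 was the highest line at 75.4% of all genes with a value in every line and at 7 of the 10 members, so that its rank alone did not set the members apart, and the size of its excess was compared instead. Over the 15629 windows with at least 50 CpGs, the median fraction was 0.0787 and 0.113 in PTC11 and PTC12 and 0.0801 and 0.231 in TTF1 and TTF4. At Kcnq1ot1, Kcnq1 and Cdkn1c TTF4 was at least 0.5 above the highest other line, a threshold chosen after the values were seen, so this is a description. Such an excess occurred at 3.01% of all 50657 windows with a value in every line and at 3.37% of those with at least 50 CpGs, and 3 of the 10 members had it. Among CpG-rich windows Kcnq1ot1 stood in TTF4 at the percentile 98.4, Kcnq1 at 96.5 and Cdkn1c at 89.4, while in PTC11, PTC12 and TTF1 Kcnq1ot1 stood at 63.5, 93.4 and 85.1, Kcnq1 at 84.7, 92.0 and 50.3, and Cdkn1c at 34.8, 21.2 and 48.6. Kcnq1ot1 and Kcnq1 thus already ranked high in PTC12, and only Cdkn1c ranked under 50 in each of the other lines. After quantile normalization, which gives each line the same distribution of fractions, TTF4 remained the highest line at all 3 genes, by 0.372 at Kcnq1ot1, 0.331 at Kcnq1 and 0.278 at Cdkn1c. At Phlda2 and Slc22a18 TTF4 was then no longer the highest line, TTF1 and PTC11 being higher. The number of members with an excess of at least 0.5 was then 0. Kcnq1ot1, Kcnq1 and Cdkn1c had been picked by their TTF4 excess, so a high rank in TTF4 was likely beforehand and is no separate support. The share of all windows with such an excess after normalization was not computed.

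**Figure D2:**
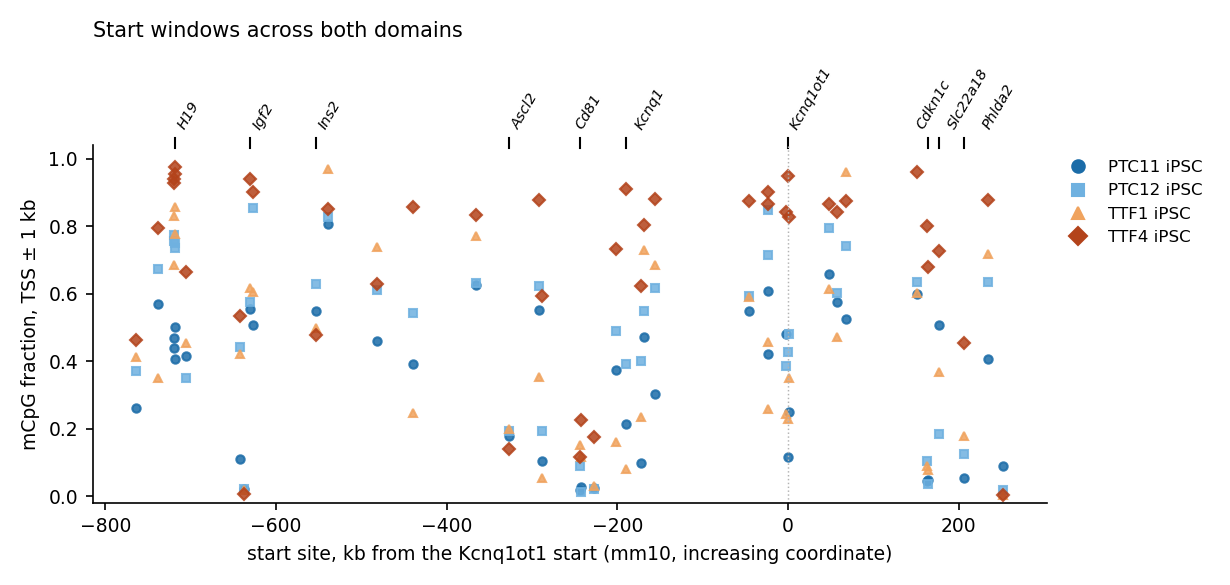
The mCpG fraction (y axis) of every annotated start window across both domains against the distance of the start from that of Kcnq1ot1 in kb (x axis), with ticks above the plot for the 10 members. Around the Kcnq1ot1 start TTF4 lies between 0.826 and 0.948 and PTC11 between 0.114 and 0.481, and at Ascl2 and Cd81 no line lies above 0.198.

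Set side by side at the starts that the methylation values used, the H19-Igf2 members had the higher mean methylation in every line. This is a description, since genes are not replicates and the means depend on those starts. Igf2 was read at its upstream start with 25 CpGs and Ins2 at one with 7. The window that holds the CpG-rich Igf2 start had fractions of only 0.00729 to 0.0222. Means with other starts were not computed. The mean fraction of the 3 H19-Igf2 members and of the 7 Kcnq1ot1 domain members was 0.535 and 0.162 for PTC11, 0.646 and 0.206 for PTC12, 0.630 and 0.183 for TTF1, and 0.797 and 0.567 for TTF4. The difference between domains was 0.373, 0.439, 0.448 and 0.230 in the same order, smallest in TTF4, with a mean of 0.372 ± 0.101 (SD, n = 4 lines). In PTC12 and TTF1 every H19-Igf2 member exceeded every Kcnq1ot1 domain member. In PTC11 Slc22a18 reached above H19, and in TTF4 Ins2 fell below 4 members of the other domain.

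**Figure D3:**
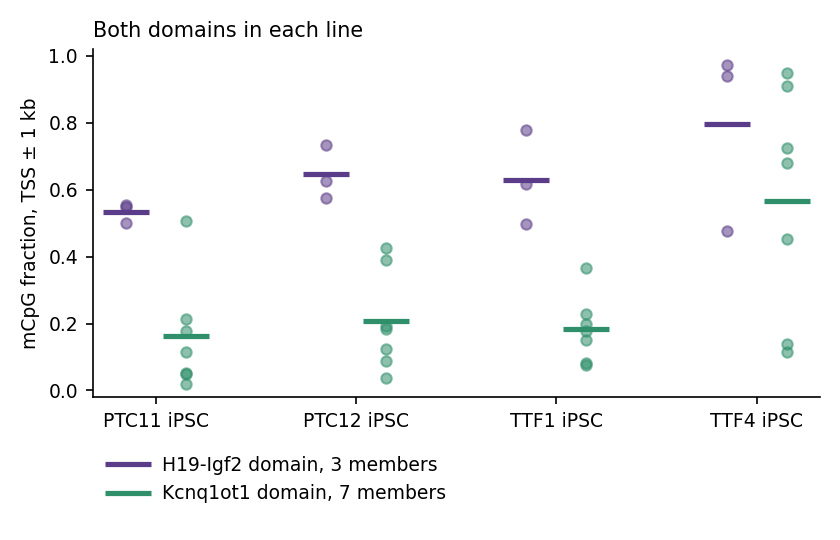
The mCpG fraction (y axis) of the members of each domain in the 4 lines (x axis), points for single members and bars for their mean. The Kcnq1ot1 domain mean lies between 0.162 and 0.206 in PTC11, PTC12 and TTF1 and at 0.567 in TTF4.

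H3K4me3 was called at fewer members in PTC11 and TTF4, the lines with the fewest values overall. Values in all 4 lines existed at Phlda2, Ascl2 and Cd81. Cd81 had the highest of them in every line but PTC11, 4.00 RPKM (PTC11), 6.69 (PTC12), 6.61 (TTF1) and 4.58 (TTF4). Phlda2 had 4.36 and 4.89 RPKM in PTC11 and PTC12 and 4.96 and 3.07 RPKM in TTF1 and TTF4. This was lowest in the line with the highest methylation of its start, and at the percentiles 84.2, 56.4, 49.0 and 21.9 of the lines' genes. The Phlda2 starts used for methylation and for H3K4me3 lay 609 bp apart. Ascl2 had 3.32, 3.71, 4.82 and 3.07 RPKM in the same order, and was thus also lowest in TTF4, the line with its lowest methylation. At each of the 3 genes the origins overlapped.

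The other members had H3K4me3 in some lines only. Kcnq1 had 3.38 RPKM in PTC11, 4.2 in PTC12 and 4.71 in TTF1, and no value in TTF4, where its start was methylated at 0.910; the starts in the 2 tables lay 892 bp apart. Cdkn1c had 5.28 RPKM in PTC12 and 4.40 in TTF1 and no value in TTF4 or in PTC11, where its methylation was 0.679 and 0.0487, so that a missing value went with both a high and a low fraction. H19 likewise had 2.92 RPKM in PTC12 and 2.29 in TTF1 only. Igf2 had a value only in PTC12, 1.72 RPKM, Slc22a18 only in TTF4, 2.79 RPKM, and Ins2 in no line. Across the 24 genes listed in the histone table over the 2 domains, H3K4me3 had values at 10 (PTC11), 17 (PTC12), 14 (TTF1) and 9 (TTF4).

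H3K36me3 was highest in PTC12 and TTF4, the lines with the highest medians, at all 6 members with 4 values. Cdkn1c had the highest level of them in every line but TTF1, 2.54 and 10.3 RPKM in PTC11 and PTC12 and 1.14 and 10.1 RPKM in TTF1 and TTF4. Within each line this was at the percentile 94.6, 99.1, 46.0 and 99.4, so that TTF1 ranked Cdkn1c lower than the other lines did also against its own genes. In TTF4 Cdkn1c thus combined high H3K36me3 with a start methylated at 0.679 and no H3K4me3 value. Igf2 had 1.81 RPKM (PTC11), 5.49 (PTC12), 0.856 (TTF1) and 4.84 (TTF4), at the percentiles 68.7, 80.6, 23.4 and 71.4, again lowest in TTF1.

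The gene body of Kcnq1 contains that of Kcnq1ot1, and ChIP reads carry no strand, so that the 2 genes could not be told apart there. Kcnq1 had 1.88 and 4.53 RPKM in PTC11 and PTC12 and 1.33 and 4.30 RPKM in TTF1 and TTF4, at similar percentiles of 58.4 to 73.8 in every line. Slc22a18 ranged from 1.67 to 3.79 RPKM, Ascl2 from 0.956 to 3.89 and Cd81 from 1.48 to 5.43, each highest in PTC12 and lowest in TTF1. Phlda2 had 1.39 RPKM in PTC11, 2.42 in PTC12 and 3.99 in TTF4 and none in TTF1. H19 had 1.74, 1.91 and 0.867 RPKM in PTC11, PTC12 and TTF1 and none in TTF4, and in PTC11 and TTF1 these were the same values as at Mir675 within it. Ins2 had only 0.894 RPKM, in PTC11.

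**Figure D4:**
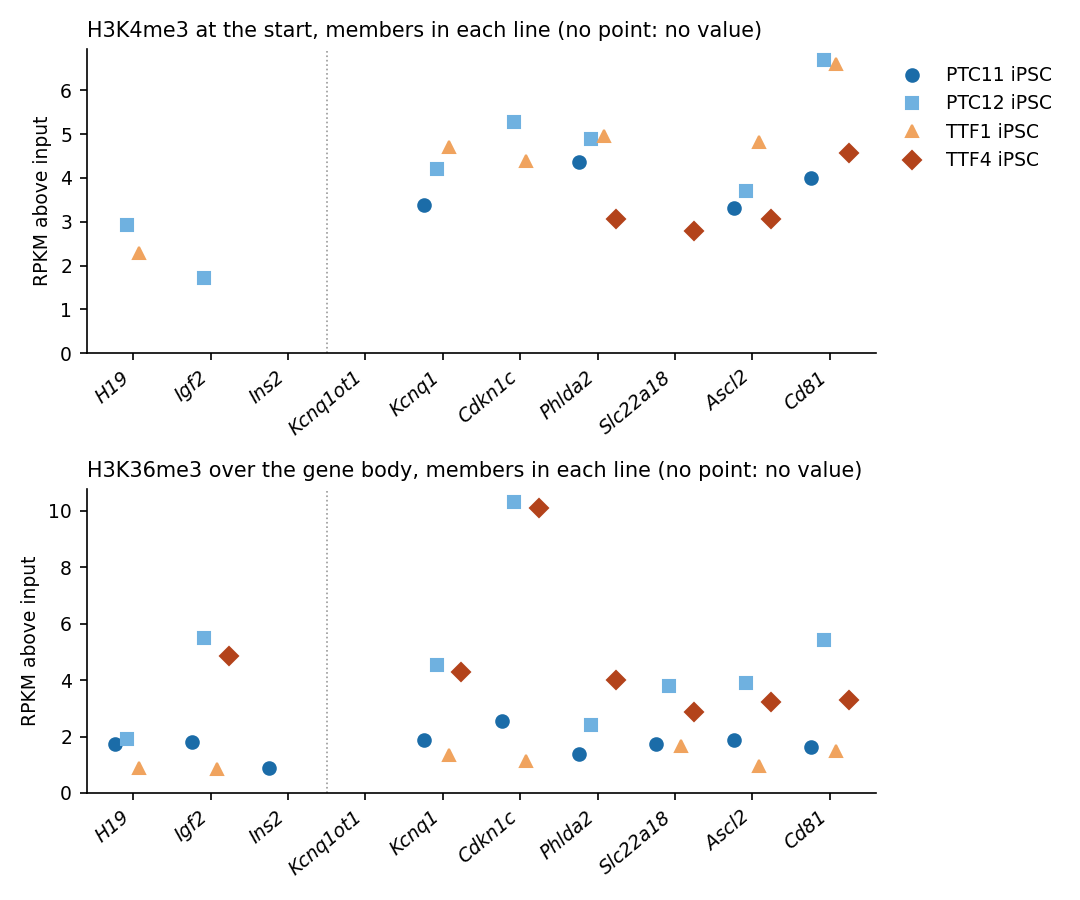
H3K4me3 at the start (upper panel) and H3K36me3 over the gene body (lower panel) in RPKM above input (y axis) for the members (x axis) in the 4 lines; a missing point is a line without a value, and Kcnq1ot1 had no row. PTC12 and TTF4 lie above PTC11 and TTF1 in H3K36me3 at all 6 members with 4 values, up to 10.3 RPKM at Cdkn1c.

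No member had an H3K27me3 value in any of the 4 libraries, which held values at only 11 to 144 genes each. Both PTC libraries of this mark carried the name of line PTC11, and no comparison of origins was made.

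The comparison of origins asked whether the cell of origin left a mark on these domains. No member passed an adjusted p under 0.05 in limma in any of the 3 assays with 2 lines per origin. In mCpG, tested on the fraction minus the mean of its line, 0 of 10 members passed and 0 had an unadjusted p under 0.05, where 0.00395% of all genes passed and 4.72% had such an unadjusted p. Cdkn1c had the largest difference of TTF minus PTC, 0.248 ± 0.136 (SE), with a 95% interval from -0.0252 to 0.521 and a limma adjusted p of 1.0. Its interval lay above 0 without centring (0.0331 to 0.636) and after quantile normalization (0.00428 to 0.410), with limma unadjusted p of 0.0296 and 0.0461 and adjusted p of 1.0 and 0.949. Kcnq1ot1 had 0.231 ± 0.155 (SE) with an interval from -0.0807 to 0.543, and H19 0.172 ± 0.136 with an interval from -0.101 to 0.445. Without TTF1, which leaves TTF4 as the sole TTF line and assumes that it varied as the others did, Cdkn1c differed by 0.414 with a limma adjusted p of 0.0279 and Kcnq1ot1 by 0.455 with 0.0884, while 1020 genes passed in place of 2. Without TTF4 the difference was 0.0817 at Cdkn1c and 0.00654 at Kcnq1ot1. The intervals of the other 7 members reached from -0.506 at Ins2 to 0.426 at Igf2, and each included 0.

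In 5 of 10 members (H19, Igf2, Cdkn1c, Phlda2 and Cd81) both TTF lines had more methylation than both PTC lines, which was so at 20.5% of all genes, and at Ins2 both had less, which was so at 3.36%. After the mean of each line was subtracted, 4 members (all but Cd81) had both TTF lines above, against 15.0% of all genes, and Ins2 had both below, against 12.8%. Since 2 against 2 lines allow no exact two-sided permutation p below 0.33, no single member could pass such a test.

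In H3K4me3, 0 of 3 members passed and 0 had an unadjusted p under 0.05, where 0.481% of all genes passed and 0.977% had such an unadjusted p. The differences on the log2(RPKM + 1) scale were -0.19 ± 0.41 (SE) at Phlda2, 0.11 ± 0.35 at Ascl2 and 0.07 ± 0.52 at Cd81. In H3K36me3, 0 of 6 members passed and 0 had an unadjusted p under 0.05, where 0.112% of all genes passed and 0.681% had such an unadjusted p. Their differences on that scale ran from -0.39 at Ascl2 to -0.17 at Slc22a18, with SEs of 0.95 to 1.47, and the median over all genes was -0.14. At none of these members did the TTF lines both lie to one side of the PTC lines, which was so at 5.04% above and 3.17% below of all genes in H3K4me3, and at 0.452% above and 3.05% below in H3K36me3.

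**Figure D5:**
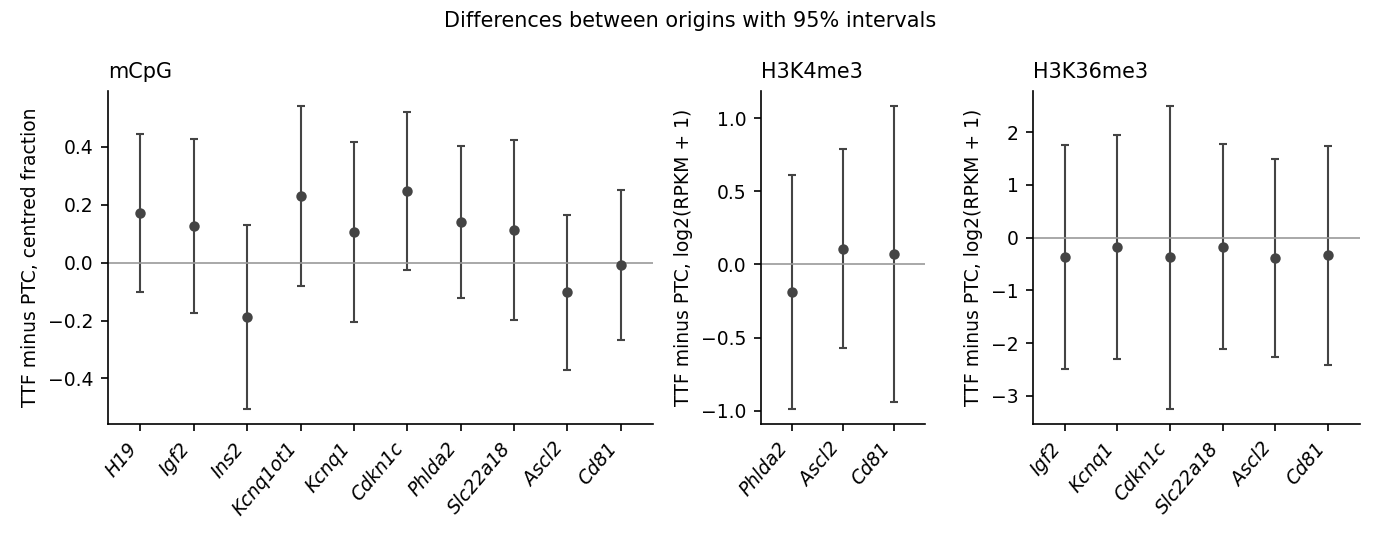
The difference of TTF minus PTC (y axis) at each member with a value in all 4 lines, with 95% intervals from limma, on the centred fraction for mCpG and on log2(RPKM + 1) for the 2 histone marks. Every interval in this fit includes 0, and Cdkn1c in mCpG comes nearest to leaving it, from -0.0252 to 0.521.

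Neighbouring genes in and around the domains were described the same way, and none of them passed in any assay. Some start between or within the members, such as Mir675 within H19 and Igf2os within the Igf2 gene body. Their values are therefore not independent of those of the members. Of 11 neighbours on the H19-Igf2 side, 5 had a higher and 6 a lower centred mCpG in TTF lines, with a median difference of -0.0345 against -0.0100 over all genes; Mir675 was the most and Igf2os the least methylated. Of 11 neighbours on the Kcnq1ot1 side, 6 had a higher and 5 a lower value, with a median of 0.0644. The highest there was Tspan32, with fractions of 0.353 to 0.877, and the lowest Nap1l4, with 0.00227 to 0.0879, lowest in the TTF lines. Osbpl5, an oxysterol-binding protein gene named after its values were seen, was the 1 neighbour with a TTF4 excess of at least 0.5, having 0.208, 0.152, 0.265 and 0.813.

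Of 15 genes that maintain or silence imprints, 0 passed in mCpG, 0 of 10 in H3K4me3 and 0 of 11 in H3K36me3. Zfp57, named after its values were seen, had start methylation of 0.351 (PTC11), 0.330 (PTC12), 0.175 (TTF1) and 0.933 (TTF4), no H3K4me3 in any line, and H3K36me3 of 2.75 RPKM in PTC11, 7.17 in PTC12 and 8.56 in TTF4, with none in TTF1. Its start methylation was therefore highest in the same line as that of Kcnq1ot1, and whether these were related was not tested. TTF4 was the highest line at 9 of these 15 genes and at 75.4% of all genes. Of 14 genes of IGF and insulin signalling, 0 passed in mCpG, 0 of 13 in H3K4me3 and 0 of 13 in H3K36me3, and the median fraction of their starts was 0.0445 to 0.110 in the 4 lines. Among the Cip/Kip inhibitors Cdkn1b had fractions of 0.00569 to 0.101 and Cdkn1a 0.259 to 0.826, and of the 3 only Cdkn1c had the TTF4 excess.

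Imprinted genes elsewhere in the genome gave the context for Kcnq1ot1 and H19. Of 31 such genes 0 passed in mCpG and 3 had an unadjusted p under 0.05, against 4.72% of all genes, and the mean over the 4 lines was highest at Meg3 and lowest at Rasgrf1. By the Euclidean distance over the 4 fractions, the genes most like Kcnq1ot1 were Airn at 0.247, Plagl1 at 0.299 and Slc38a4 at 0.310. Airn, an antisense RNA like Kcnq1ot1, had 0.336 and 0.342 in PTC11 and PTC12 and 0.250 and 0.882 in TTF1 and TTF4. The genes most like H19 were Rian at 0.209, Rtl1 at 0.222 and Nnat at 0.271. Rian and Rtl1, on chromosome 12, belong to another imprinted domain with a paternally methylated control region. Nnat, on chromosome 2, is not part of that domain. The other listed genes on chromosome 12 were ranked by likeness to H19 after their values were seen. Meg3 and Mirg ranked 4 and 5 of 31, but Dlk1 and Dio3 ranked 20 and 30. Rasgrf1, on chromosome 9, ranked last at 31. Whether likeness to H19 went with the type of control region was not tested. Of the 31 genes only Airn had TTF4 at least 0.5 above the highest other line, which was so at 3.01% of all windows. TTF4 was the highest line at 75.4% of all genes, and here at 20 of the 31 genes and not at 11. Among the latter Peg3, named after its values were seen, had 0.319 (PTC11), 0.804 (PTC12), 0.496 (TTF1) and 0.0679 (TTF4), the reverse of Kcnq1ot1 in that line.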

How the data were processed

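CpG methylation and 3 histone marks were measured in 4 iPSC lines, 16 samples in all. The methylation fraction per gene was deposited by the authors, who called bases with Guppy, aligned reads to mm10 with Minimap2 2.17-r941, called CpG methylation with Nanopolish and averaged sliding windows within 1 kb of the TSS. The RPKM per gene were deposited by the authors, who aligned ChIP reads with Bowtie2 2.1.0, called peaks against input with MACS2 2.0.10, subtracted input and averaged peaks per gene; the submitters' processing notes, the source of these versions, also name bedtools 2.17.0. Neither table gives counts or coverage, so depth per value is unknown and precision rests on the spread between lines. Whether differences between libraries are technical or biological cannot be told from 1 library per line.

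Lines were grouped by the sample titles. Where a listed gene's name had several rows, the row with the most values was used. TTF minus PTC was tested over all genes with a value in all 4 lines with limma 3.58.1 (lmFit, eBayes with trend) in R 4.3.3, two-sided, with Benjamini-Hochberg adjustment, on log2(RPKM + 1), which understates changes of low values, or on the fraction minus the mean of the line; the step was tested on simulated data. Coordinates of the methylation table were the same as in GENCODE M21 for 98.9% of rows. CpGs and TGCCGC were counted within 1000 bp of each TSS in GRCm38. The members and lists were chosen with earlier results of these data known. The text names all members, list genes with an adjusted p under 0.05, the highest and lowest of a list by mean, and the 3 imprinted genes nearest to H19 and to Kcnq1ot1; others are said to be named after their values were seen. Alternatives varied the pseudocount, normalization, filters, missing values, variance trend, centring and scale, and left out each line.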

Additional observations from a re-analysis of the deposited data

How the results depend on the processing

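No paired analysis was possible because the labels give the lines of the 2 origins no shared number. No member passed in any assay under any alternative tried except Cdkn1c in mCpG without TTF1, so that leaving out 1 line gave 0 to 1 members passing there and 0 in both histone marks. The number of members with TTF4 at least 0.5 above the highest other line, compared after the values were seen, fell from 3 to 0 after quantile normalization and to 0 after subtracting the mean of each line. The mCpG difference between domains stayed between 0.341 and 0.420 under every alternative, and leaving out 1 line gave 0.347 to 0.420. None of these alternatives changed the start used for a gene. Cd81 in mCpG turned from -0.00770 to 0.0794 without centring, 0.0825 after quantile normalization and 0.0449 on the arcsine square root scale, and Slc22a18 in H3K36me3 turned to 0.0344 after quantile normalization.

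Leaving out 1 line turned some differences of TTF minus PTC. In mCpG they ranged from -0.173 to 0.386 at Kcnq1, -0.103 to 0.329 at Slc22a18, -0.267 to 0.0616 at Ascl2 and -0.160 to 0.145 at Cd81. In H3K4me3 they ranged from -0.47 to 0.0842 at Phlda2, -0.15 to 0.37 at Ascl2 and -0.24 to 0.38 at Cd81. In H3K36me3 they ranged from -1.20 to 0.45 at Igf2, -0.77 to 0.41 at Kcnq1, -1.56 to 0.81 at Cdkn1c, -0.58 to 0.23 at Slc22a18, -0.94 to 0.17 at Ascl2 and -0.98 to 0.31 at Cd81. Each such fit assumes that a lone line varied like the others, and the cause was not tested. H19, Igf2, Ins2, Kcnq1ot1, Cdkn1c and Phlda2 kept their sign in mCpG under every alternative that gave them a value, but not their size: without 1 line H19 ranged from 0.110 to 0.234, Igf2 from 0.0813 to 0.170, Ins2 from -0.334 (without TTF1) to -0.0418 (without TTF4), Kcnq1ot1 from 0.00654 to 0.455, Cdkn1c from 0.0817 to 0.414 and Phlda2 from 0.121 to 0.159. H19 was lowest without PTC11 and Igf2 without PTC12. Unknown coverage limits every fraction, most at windows with few CpGs such as Ins2 and Slc22a18.

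Over all genes the number passing depended on the setting. In H3K4me3 66 passed, 102 with a pseudocount of 0.1 and 59 to 108 without 1 line; in H3K36me3 19, 44 and 1 to 31. In both marks 0 passed with a mean of at least 1 RPKM, quantile normalization, the median of each line subtracted, missing values set to 0 or no variance trend. In mCpG 2 passed, 1 without the variance trend, 0 to 1020 without 1 line, and 0 without centring, after quantile normalization, on the arcsine square root scale or with a mean fraction from 0.1 to 0.9, which left out Cd81.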
